A study of Mus musculus with 9 samples.

Results

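9 genes of B lymphocyte development were followed in fracture callus: Cd79a, Cd79b, Ms4a1, Pax5, Ebf1, Vpreb1, Vpreb3, Igll1 and Rag1. They were chosen by symbol, with no threshold on their values, and all 9 were found among the 22054 genes of the table. Callus was collected from male C57BL/6J mice, 7 weeks old by the labels, with a surgical fracture of the left femoral shaft held by an intramedullary needle. Mice received daily intraperitoneal injections for one week of 200 μl of H-151 (750 nmol), an inhibitor of the innate immune adaptor STING, of 200 μl of SR-717 (30 mg/kg), a STING activator, or of PBS in equal volume. The paper places this sequencing at day 7 after surgery. The question behind the design was how blocking or activating STING altered the early callus. Each group held 3 libraries of bulk poly(A) RNA, with 16987398 to 23272480 assigned counts each. The labels give a number to each biosample but do not say that each came from a separate mouse, so p-values measure the spread between these samples.

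B lymphocytes arise in the bone marrow, where progenitors cut and join immunoglobulin gene segments with the RAG recombinase and then test the new heavy chain by pairing it with a surrogate light chain made of the Vpreb and Igll1 proteins. EBF1 and PAX5 are the transcription factors that set and hold the B cell identity, and CD79A and CD79B carry the signal of both the pre-B cell receptor and the mature receptor. MS4A1, known as CD20, appears on the surface as the cells mature. EBF1 is also made by mesenchymal stroma and adipocyte precursors, so its transcript is not particular to B cells.

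Promoter sequences are shown for Cd79a, Igll1, Rag1 and Vpreb3, each of which holds a match to a motif described here outside annotated exons. Of the 9 genes, 7 had a RefSeq promoter window on GRCm38.p6, 8 windows in all because Ebf1 had 2, and the stretch before the transcription start was searched on both strands for 3 motifs that B cell factors are known to use. The EBF site was written CCCNNGGGA, the E-box CAGGTG or CAGCTG, and the octamer ATGCAAAT. An EBF site of these letters was found in 0 of 8 windows against 5.6% of all 32851 windows of 250 bases, an E-box in 4 of 8 against 27.7%, and an octamer in 1 of 8 against 1.6%. The E-boxes were those of Cd79a, Vpreb1, Igll1 and Rag1, and the octamer that of Vpreb3. Pax5 and Ebf1 had 0 matches, and the longest stretch of Vpreb1 outside exons held no match, so these are not shown. Below, capitals mark a motif match on either strand, every sequence is written 5′ to 3′ on the strand of its gene, and only bases outside annotated exons are given. The Cd79a stretch is chr7:24897247-24897380 (plus strand), the Igll1 stretch chr16:16863986-16864235 (minus), the Rag1 stretch chr2:101649533-101649782 (minus) and the Vpreb3 stretch chr10:75948050-75948299 (plus), which lies within the annotated Vpreb3 gene but outside its exons. A match of letters is a description and was not tested as a binding site or set against the expression values. Only exact matches were counted, so a site that departs from these letters is missed, and 0 matches does not mean that a promoter lacks such a site.
Cd79a: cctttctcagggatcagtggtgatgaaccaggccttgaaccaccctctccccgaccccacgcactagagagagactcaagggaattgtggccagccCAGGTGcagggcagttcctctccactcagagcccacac
Igll1: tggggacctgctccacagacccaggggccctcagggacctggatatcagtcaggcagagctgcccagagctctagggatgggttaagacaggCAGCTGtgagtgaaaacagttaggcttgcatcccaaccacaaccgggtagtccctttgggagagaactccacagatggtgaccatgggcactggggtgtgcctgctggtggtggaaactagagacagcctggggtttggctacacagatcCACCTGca
Rag1: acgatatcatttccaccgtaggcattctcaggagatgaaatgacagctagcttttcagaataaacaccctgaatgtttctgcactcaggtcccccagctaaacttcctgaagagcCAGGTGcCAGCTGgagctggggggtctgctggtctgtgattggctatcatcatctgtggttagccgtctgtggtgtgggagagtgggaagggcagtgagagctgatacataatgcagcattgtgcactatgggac
Vpreb3: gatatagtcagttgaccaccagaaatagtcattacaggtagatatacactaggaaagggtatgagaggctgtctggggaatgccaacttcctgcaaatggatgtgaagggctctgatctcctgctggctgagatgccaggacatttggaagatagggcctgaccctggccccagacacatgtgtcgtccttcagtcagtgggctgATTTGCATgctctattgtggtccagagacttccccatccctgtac

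Among the 9 libraries, 8 of the 9 genes varied together and Ebf1 did not follow them. Summed over those 8 genes, the level was 51.6, 70.6 and 25.2 CPM (counts scaled to a common library size with TMM factors) in the H-151 libraries 1 to 3. In PBS it was 7.13, 51.8 and 10.8 CPM, and in SR-717 11.4, 62.4 and 22.1 CPM. PBS replicate 2 and SR-717 replicate 2 were thus at or above H-151 replicate 1 and below H-151 replicate 2, PBS replicate 1 was the lowest, and the 3 groups overlapped. The highest library held 9.91 times the level of the lowest. In bulk tissue, fewer B lineage cells and less of their RNA per cell cannot be told apart.

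**Figure D1:**
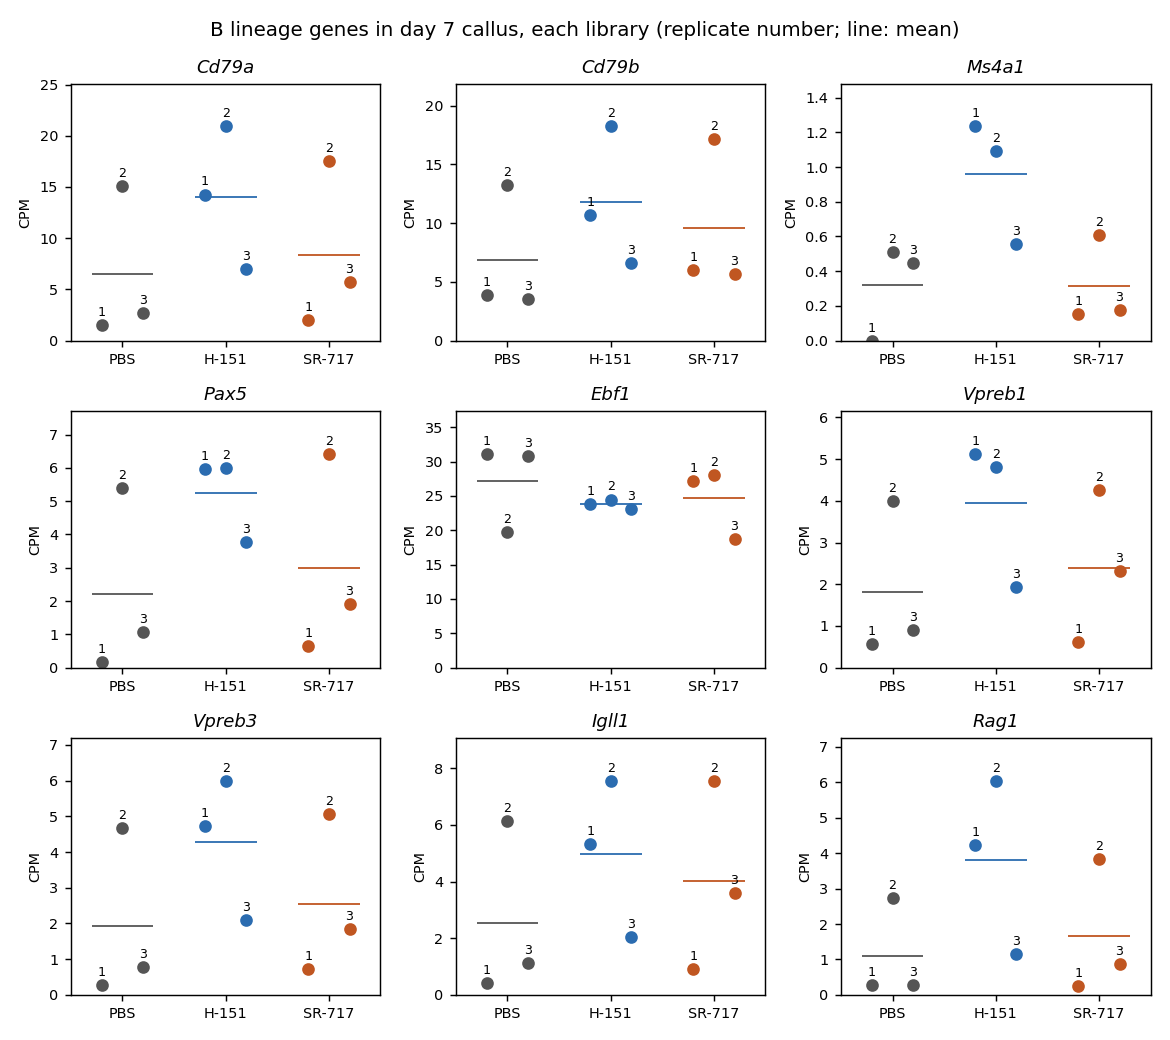
Level of each of the 9 B lineage genes in CPM (linear axis from 0) for every library, with points numbered by replicate and a line at the mean of each group of 3. In 8 panels the libraries of each group spread widely and replicate 2 is high in all groups, whereas Ebf1 stays between 18.8 and 31.2 CPM.

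The subunits of the receptor complex led the 8 genes that varied together when compared per unit length. Cd79a (chr7:24897381-24902197, plus strand, GRCm38), the immunoglobulin-alpha chain, stood at 14.3, 20.9 and 6.99 CPM in H-151, 1.55, 15.1 and 2.68 CPM in PBS, and 2.00, 17.5 and 5.67 CPM in SR-717. Its lowest value was in PBS replicate 1 and its highest in H-151 replicate 2, and all groups overlapped. Cd79b (chr11:106311341-106314762, minus strand), the immunoglobulin-beta chain, stood at 10.7, 18.2 and 6.60 CPM in H-151, 3.85, 13.2 and 3.57 CPM in PBS, and 6.04, 17.1 and 5.67 CPM in SR-717. Cd79b varied least of the 8, with a 5.11-fold range against 13.5-fold for Cd79a. The length-scaled levels were alike, with medians over the libraries of 8.96 TPM for Cd79b and 7.99 TPM for Cd79a.

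Ms4a1 (chr19:11249675-11266241, minus strand), the CD20 protein of maturing B cells, was sparsely counted. It had 25, 22 and 10 counts in H-151, 0, 12 and 8 in PBS, and 3, 13 and 3 in SR-717, and the 0 of PBS replicate 1 allows up to 0.172 CPM (a limit of 3 counts, for counting error only). All 3 H-151 libraries, at 1.23, 1.09 and 0.555 CPM, were above all 3 PBS libraries, at 0, 0.510 and 0.446 CPM. Ms4a1 was the 1 gene of 9 with a pair of groups that did not overlap. Of all genes tested in H-151 against PBS, 1.6% had H-151 libraries all above PBS and 2.15% all below. The nearest libraries of Ms4a1 were H-151 replicate 3 on 10 counts and PBS replicate 2 on 12 counts.

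The transcription factors went separate ways. Pax5 (chr4:44524757-44710487, minus strand), the commitment factor, stood at 5.97, 6.00 and 3.77 CPM in H-151, 0.172, 5.40 and 1.06 CPM in PBS, and 0.666, 6.43 and 1.91 CPM in SR-717. It spanned 37.3-fold over the libraries, the widest of the genes with a value above 0 in each, and PBS replicate 1 rested on 3 counts. Ebf1 (chr11:44617317-45008091, plus strand) stood at 23.9, 24.5 and 23.1 CPM in H-151, 31.2, 19.7 and 30.8 CPM in PBS, and 27.2, 28.1 and 18.8 CPM in SR-717. It spanned 1.66-fold, and its highest libraries were PBS replicates 1 and 3. These were low for the other genes, apart from Ms4a1 in PBS replicate 3. Per unit length Ebf1 had a median of 8.57 TPM and Pax5 of 1.72 TPM.

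The surrogate light chain genes followed Cd79a closely. Vpreb1 (chr16:16868403-16870843) and Igll1 (chr16:16860671-16863985), neighbours on the minus strand, encode the variable-like and constant-like parts of that chain. Vpreb1 stood at 5.13, 4.81 and 1.94 CPM in H-151, 0.575, 4.00 and 0.892 CPM in PBS, and 0.614, 4.27 and 2.32 CPM in SR-717. Igll1 stood at 5.33, 7.53 and 2.05 CPM in H-151, 0.402, 6.12 and 1.12 CPM in PBS, and 0.921, 7.55 and 3.59 CPM in SR-717. In both, replicate 2 was the highest library of PBS and of SR-717. For Igll1 it was above H-151 replicate 1 in both groups, and for Vpreb1 it was below H-151 replicates 1 and 2. Vpreb3 (chr10:75943057-75949657, plus strand), a related protein that binds nascent immunoglobulin chains, stood at 4.74, 6.00 and 2.11 CPM in H-151, 0.287, 4.68 and 0.781 CPM in PBS, and 0.717, 5.07 and 1.85 CPM in SR-717. Vpreb2, a close copy of Vpreb1, had 3.03% to 25.0% of the Vpreb1 count, and how reads were shared between these copies is not known, so the Vpreb1 values carry that uncertainty.

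Rag1 (chr2:101638282-101649501, minus strand), the catalytic subunit of the recombinase, stood at 4.24, 6.05 and 1.16 CPM in H-151, 0.287, 2.72 and 0.279 CPM in PBS, and 0.256, 3.85 and 0.868 CPM in SR-717. PBS replicates 1 and 3 and SR-717 replicate 1 each rested on 5 counts. Its range of 23.6-fold came after that of Pax5. Its partner Rag2 was nearly undetected, at 0 to 0.422 CPM. Ordered by median TPM over the libraries, Cd79b (8.96), Ebf1 (8.57), Cd79a (7.99) and Igll1 (7.77) led, followed by Vpreb1 (5.68), Vpreb3 (5.62), Pax5 (1.72), Ms4a1 (0.300) and Rag1 (0.294). The ranges of neighbours in that order overlapped over the libraries. Compared within each library, Vpreb3 was above Pax5 and Pax5 above Ms4a1 in 9 of 9 libraries, Cd79a was above Igll1 in 8 of 9, and the order of the other neighbours varied between libraries.

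**Figure D2:**
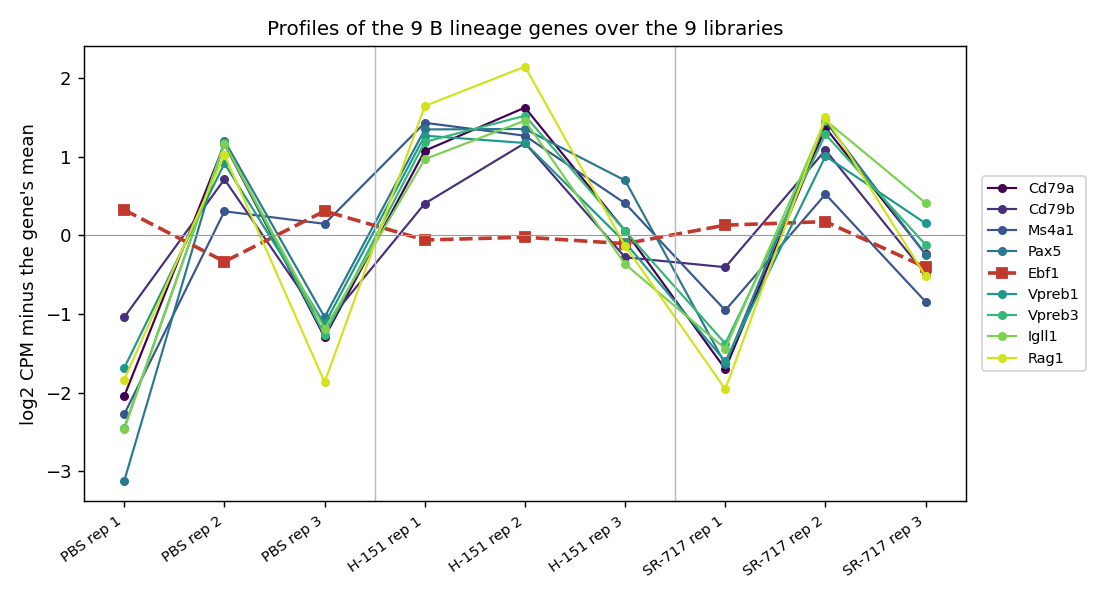
Profile of each gene over the 9 libraries as log2 CPM minus the mean of that gene, with groups separated by vertical lines and Ebf1 dashed. The 8 other lines are below 0 in PBS replicate 1 and SR-717 replicate 1, and all but that of Ms4a1 also in PBS replicate 3. They are above 0 in replicate 2 of PBS and SR-717, while Ebf1 has the narrowest range of the 9.

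Over the 9 libraries, the 28 pairs among the 8 genes had Pearson correlations of log2 CPM from 0.70 to 0.99, with a median of 0.93. With each group centred on its own mean the correlations were 0.66 to 0.99 with the same median, so the 8 genes also varied together within groups. Ebf1 had correlations of -0.57 to -0.26 with the 8 genes. These are descriptions over 9 points that share library, depth and tissue composition. The within-group SD of log2 CPM was 0.895 to 1.55 for the 8 genes and 0.287 for Ebf1, against a median of 0.318 and a 90th percentile of 0.845 over all 14294 genes. Among the 7502 genes with a mean CPM in the range of the 9 genes, the median was 0.389 and the 90th percentile 0.961. The groups accounted for 8.34% of the variance of Ebf1 and for 21.3% (Cd79b) to 44.2% (Ms4a1) of that of the 8 other genes. The median was 14.7% over all genes and 15.6% among those 7502 genes. These shares rest on 3 libraries in each group and were not tested.

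Within a library the pre-B genes kept narrower proportions than their levels. As a share of the Cd79a count, not scaled for length, Igll1 lay between 25.9% and 63.3%, Vpreb1 between 23.0% and 40.7%, Vpreb3 between 18.5% and 35.9%, and Rag1 between 10.4% and 29.8%. Pax5 lay between 11.1% and 54.0%, with PBS replicate 1 at the low end on 3 counts. Cd79b departed from this, at 74.7% to 133% in 7 libraries but 248% in PBS replicate 1 and 303% in SR-717 replicate 1. The share of Igll1 was 50.9% ± 10.8 in SR-717, 36.0% ± 8.76 in PBS and 34.3% ± 4.29 in H-151 (SD, 3 libraries each), and the groups were not tested on it.

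**Figure D3:**
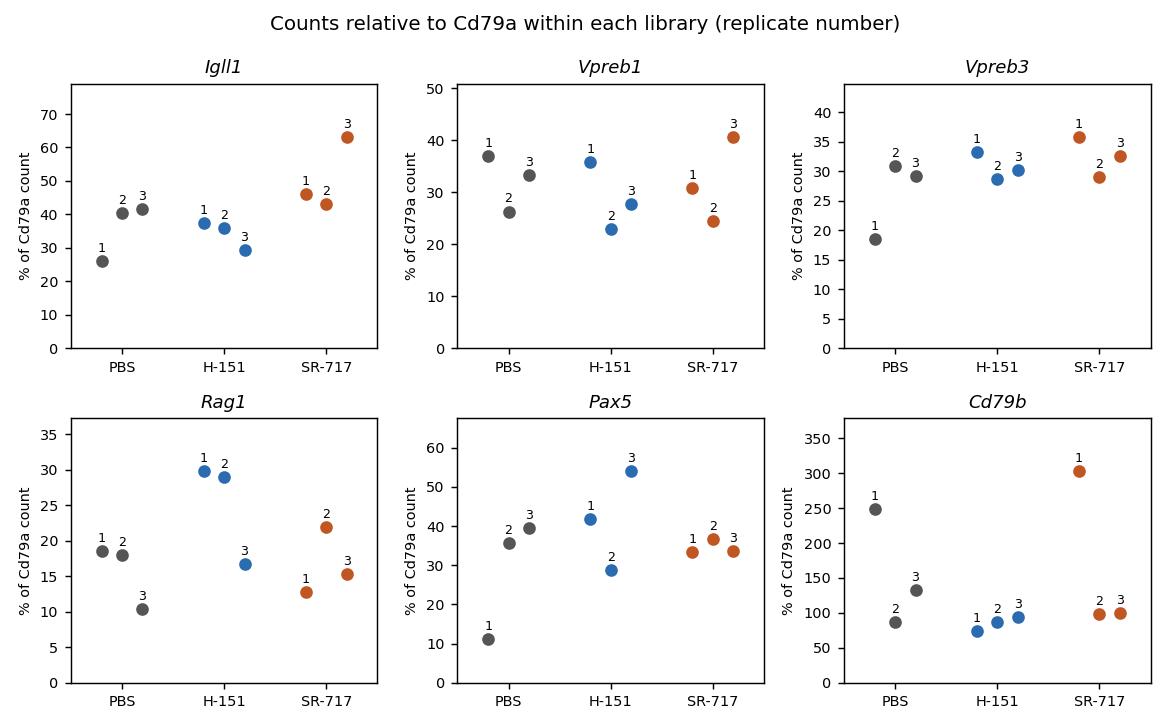
Counts of 6 B lineage genes as a percentage of the Cd79a count in the same library (linear axes from 0), by group, with points numbered by replicate. Surrogate light chain genes stay within 18.5% to 63.3%, and Cd79b stands out in PBS replicate 1 and SR-717 replicate 1.

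The genes most like the 9, by Pearson correlation with their mean log2 CPM over the 9 libraries among 13509 genes with a mean of at least 1 CPM, included Alas2 (0.990), Tent5c (0.986), Trim10 (0.986) and Rhag (0.985). Alas2 makes the first step of heme synthesis in red cell precursors and Rhag is a red cell membrane protein. For Cd79a the nearest gene was Car2 (0.995), a carbonic anhydrase. For Ebf1 the nearest were Fut8 (0.970) and Zbtb38 (0.966), and no erythroid gene was among its first 5. Of the 10 erythroid genes listed, 9 were in the table, none was at 0 in any library, and their correlations with the mean of the 9 genes were 0.91 to 0.99. Their summed level ranged from 3866 to 14330 CPM in H-151, from 437 to 9855 CPM in PBS and from 807 to 8160 CPM in SR-717, and their part in the result was not tested. Per 1000 CPM of erythroid transcript, the 8 genes made up 4.93 to 16.3 CPM, with PBS replicate 1 (16.3) and SR-717 replicate 1 (14.1) above the other libraries.

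**Figure D4:**
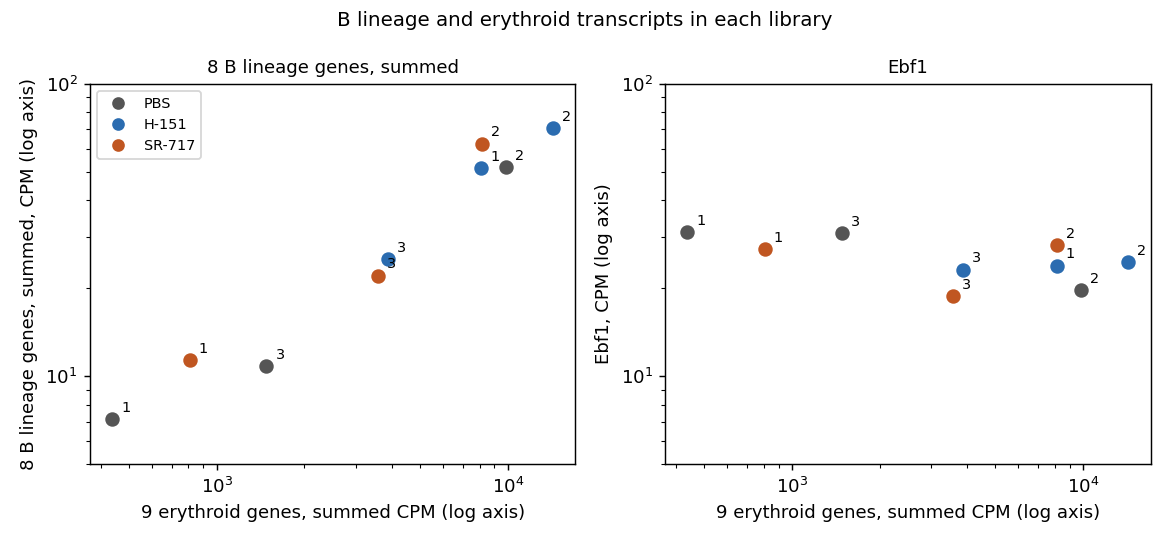
Summed CPM of the 8 B lineage genes (left) and CPM of Ebf1 (right) against the summed CPM of 9 erythroid genes, both axes logarithmic, with points coloured by group and numbered by replicate. The left panel climbs from PBS replicate 1 (437 and 7.13 CPM) to H-151 replicate 2 (14330 and 70.6 CPM), and the right panel does not climb.

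Of the lists of other cell types, cartilage genes had correlations of 0.52 to 0.75 with the mean of the 9 genes (median 0.66), adipocyte genes -0.30 to 0.91 (median 0.62) and muscle genes 0.36 to 0.59 (median 0.50). The summed level of the 8 cartilage genes ranged from 6704 to 12720 CPM in H-151, from 2254 to 17315 CPM in PBS and from 741 to 10418 CPM in SR-717, and the part of these lists in the result was not tested. Granule genes of neutrophil precursors had correlations of 0.13 to 0.36 with that mean, T cell genes -0.77 to -0.11 and inflammatory genes -0.67 to -0.44. The inflammatory sum was 2534 CPM in SR-717 replicate 1 and 440 CPM in PBS replicate 1 but 35.1 to 104 CPM in the others, and these 2 libraries also stood apart on the first principal component (46.5% of the variance). Of the listed B lineage genes with a mean of at least 1 CPM, a correlation above 0.9 was found for 4 of 13 B cell surface and signaling genes (median 0.54, lowest -0.65), 1 of 6 pre-B genes (median 0.41) and 1 of 5 mature B cell genes. It was found for 0 of 6 plasma cell genes, 0 of 12 transcription factors, 0 of 12 receptor signaling genes and 0 of 7 niche genes. Among those above 0.9 were the coactivator gene Pou2af1 (0.96), the terminal transferase Dntt (0.96), which adds bases at heavy chain junctions, and Ly6d (0.95). Dntt stood at 5.53, 5.95 and 2.22 CPM in H-151, 0.0575, 4.64 and 0.558 CPM in PBS, and 0.973, 10.5 and 1.97 CPM in SR-717, again lowest in PBS replicate 1. Il7r, the interleukin-7 receptor, which T cells also carry, did not follow (-0.46). It stood at 12.5 CPM in SR-717 replicate 1, 10.4 CPM in H-151 replicate 3 and 10.2 CPM in PBS replicate 1, and at 2.68 to 6.76 CPM in the others. Of the genes of mature and antibody-secreting cells, Cr2 was at 0 to 0.297 CPM and Ighd at 0.307 to 4.66 CPM, while Jchain was highest in SR-717 replicate 1 at 19.4 CPM and Mzb1 ranged from 0.517 to 5.06 CPM. Of the niche factors, Il7 ranged from 0.388 to 1.43 CPM and Cxcl12 from 560 to 780 CPM.

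The 3 comparisons of groups, which share libraries with each other, were made with edgeR's quasi-likelihood test over all genes kept. Since all the genes but Ebf1 varied together over the libraries, counts among them are not counts of separate results. For SR-717 against PBS, 8 of the 9 genes were tested (Ms4a1 was too low) and 0 passed an adjusted p of 0.05, as did 0% of 14070 genes. At an unadjusted p under 0.05 the count was 0 of 8, against 0.689% of all genes, and no gene had all SR-717 libraries above or below all PBS libraries, against 1.36% above and 2.62% below. The median log2 fold change of the 8 tested genes was 0.42, against 0.01 over all genes, and 7 of the 8 had a positive value. Values ran from -0.13 (SE 0.26) for Ebf1 to 0.66 (SE 1.09) for Igll1, each smaller than its SE. The adjusted p was 0.9999 for every one of them. With the replicate number as a block, Cd79b at 0.57 (unadjusted p = 0.0408) and Igll1 at 1.00 (unadjusted p = 0.0468) had unadjusted values under 0.05, 2 of 8 against 3.8% of all genes, and their adjusted p was 0.999. The median was -0.45 without SR-717 replicate 2, 2.12 without PBS replicate 2 and -0.03 without PBS replicate 1. It was 0.11 without PBS replicate 3 and 0.86 without SR-717 replicate 1, so its sign and size changed when single libraries were left out. If the replicate numbers pair the libraries, leaving out 1 also breaks a pair. By same-numbered libraries, SR-717 was above PBS in 3 of 3 pairs for Cd79a, Cd79b, Pax5, Vpreb1, Vpreb3 and Igll1. It was above in 2 of 3 pairs for Ms4a1 and Rag1 and in 1 of 3 for Ebf1. Such counts were not made over all genes, and the pairing was not established. Without both SR-717 replicate 1 and PBS replicate 1, the median was 0.41.

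For H-151 against PBS all 9 genes were tested and 0 passed an adjusted p of 0.05, as did 0% of 14085 genes. The median log2 fold change was 1.11, against -0.02 over all genes, and 8 of the 9 were positive, from 0.77 (SE 0.60) for Cd79b to 1.75 (SE 0.97) for Rag1, with Ebf1 at -0.19 (SE 0.20). At an unadjusted p under 0.05 the count was 0 of 9 against 0.646% of all genes. Ms4a1, at 1.53 (SE 0.83, unadjusted p = 0.109), was the 1 gene of 9 with H-151 libraries all above PBS, against 1.6% of all genes, and 0 of 9 lay all below, against 2.15%. By same-numbered libraries, H-151 was above PBS in 3 of 3 pairs for each of the 8 genes other than Ebf1, for Cd79a by 3.12, 0.46 and 1.35 on the log2 scale. For Ebf1 it was above in 1 of 3 pairs. The 8 genes varied together, such counts were not made over all genes, and the pairing was not established. With the replicate number as a block, Rag1 at 2.13 (unadjusted p = 0.00927), Cd79b at 0.92 (unadjusted p = 0.0108) and Cd79a at 1.57 (unadjusted p = 0.0243) had unadjusted values under 0.05, 3 of 9 against 3.06% of all genes, and their adjusted p was 1. Without PBS replicate 1 the median was 0.65. Without PBS replicate 2 it was 2.71 and 8 of 9 genes, Ebf1 among them in the negative direction, had an unadjusted p under 0.05, as did 6.21% of all genes, with 0.608 the smallest adjusted p of the 9 by edgeR.

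For SR-717 against H-151, 0 of 9 genes passed an adjusted p of 0.05, as did 0% of 14151 genes. The median log2 fold change was -0.74, against 0.02 over all genes, and 8 of 9 were negative, with Ebf1 at 0.06 (SE 0.19). Ms4a1, at -1.57 (SE 0.63), was the 1 gene of 9 with an unadjusted p under 0.05 (0.0449, adjusted p = 0.996), against 1.03% of all genes. Its groups overlapped, since SR-717 replicate 2 at 0.610 CPM was above H-151 replicate 3 at 0.555 CPM. None of the 9 genes had SR-717 libraries all above H-151 or all below, against 2.23% and 2.82% of all genes. Without SR-717 replicate 2 the median was -1.74, without SR-717 replicate 1 it was -0.27 and without H-151 replicate 2 it was -0.42. In the edgeR fit without SR-717 replicate 2, 5 of 9 genes had an unadjusted p under 0.05, as did 2.8% of all genes. The smallest adjusted p of the 9 in that fit was 0.983.

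**Figure D5:**
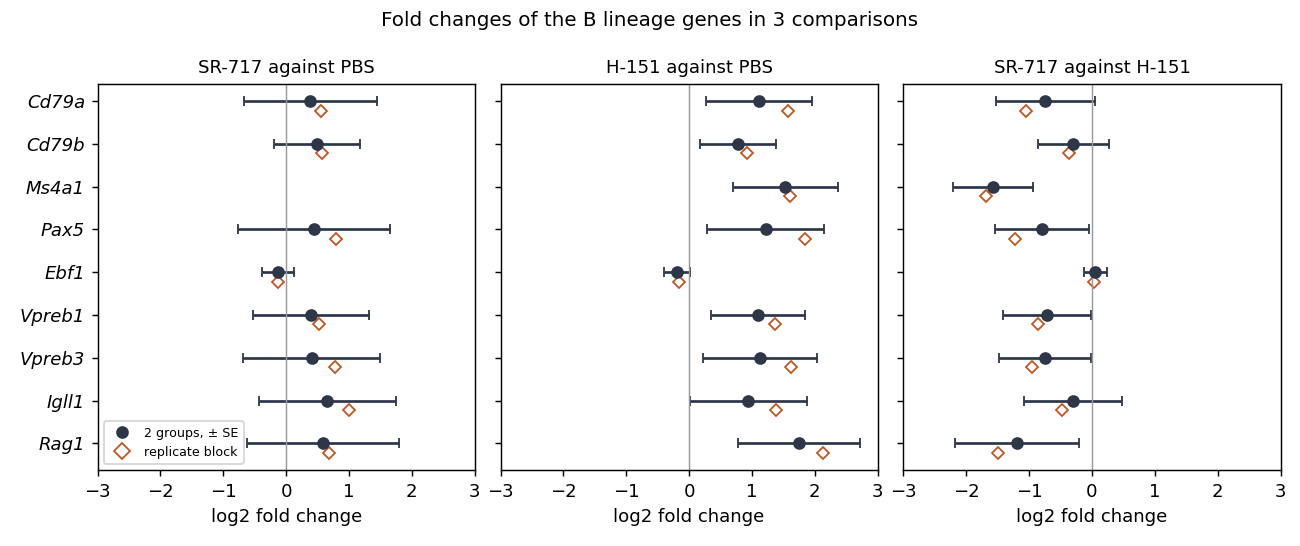
Log2 fold change of each B lineage gene in the 3 comparisons, as filled points with bars of 1 SE from the test between groups, and as open diamonds from the fit with the replicate number as a block. Most bars are wide, Ebf1 lies near 0 in each panel, and Ms4a1 was not tested in SR-717 against PBS.

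The wider B cell lists were tested in the same way. Over 7 lists of pre-B, B cell, plasma cell, transcription factor, receptor signaling and niche genes, 64 of 69 genes were tested in each comparison and 0 passed an adjusted p of 0.05. At an unadjusted p under 0.05 the counts were 0, 0 and 1 for SR-717 against PBS, H-151 against PBS and SR-717 against H-151, beside 0.689%, 0.646% and 1.03% of all genes. The 1 gene was Prkcb, a kinase downstream of the receptor that other leukocytes also use, at 0.83 (SE 0.33, unadjusted p = 0.0418, adjusted p = 0.996) in SR-717 against H-151. Its libraries stood at 22.6, 23.3 and 10.2 CPM in SR-717 and at 11.2, 10.4 and 10.0 CPM in H-151. The 12 genes of receptor signaling had median log2 fold changes of 0.64, -0.14 and 0.79 in the 3 comparisons, against 0.01, -0.02 and 0.02 over all genes. These 12 did not follow the B lineage genes, with correlations of -0.76 to 0.41 (median -0.33) with the mean of the 9. Their summed level was 1845 CPM in SR-717 replicate 1, where the inflammatory genes were also highest, against 648 and 516 CPM in the other SR-717 libraries, 435 to 834 CPM in PBS and 463 to 678 CPM in H-151.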

How the data were processed

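A table of 9 libraries (3 per group) held the deposited values: unnormalized expected counts of each gene and TPM, which the authors had scaled for gene length. The submitters' processing notes name mm10; the aligner, counter and annotation are not given in the sources used here. The labels describe strand-specific libraries. Expected counts, of which 8.91% were not whole, were rounded and tested in edgeR 4.0.16 (R 4.3.3) by the quasi-likelihood test with TMM scaling, filterByExpr (minimum count 10) and Benjamini-Hochberg adjustment, separately for each pair of groups. The design had assumed whole counts. Log2 CPM used a prior count of 2. The script was tested on simulated data for SR-717 against PBS only. The simulation gave every gene the same dispersion and no variation shared between genes, unlike these data, so it checked the code alone. Alternatives were DESeq2 1.42.0 (size factors, Wald test), other filters, 1 fit over all libraries, a replicate block and leaving out each library. The genes, lists and rules were chosen with earlier results of these data known. The named genes are the 9, 11 further B cell genes, any listed B cell gene with an unadjusted p under 0.05, and the 5 genes most like each; some of these are not reported here. Positions are those of GENCODE M21 (GRCm38) by Ensembl ID, and promoters those of RefSeq. Replicate numbers come from the labels. Deviations from group means of same-numbered libraries correlated at 0.65, 0.34 and 0.14 (replicates 1 to 3) for SR-717 with PBS. They correlated at 0.30, 0.49 and 0.50 for H-151 with PBS, and at 0.34, 0.06 and 0.08 for SR-717 with H-151. Why they correlated is not known, so whether the numbers pair the libraries was not established. The values reported come from the fit without the block, and those with it are named as such.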

Additional observations from a re-analysis of the deposited data

How the results depend on the processing

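In every alternative and comparison 0 of the 9 genes passed an adjusted p of 0.05. Leaving out each library in turn moved the median log2 fold change from -0.45 to 2.12 for SR-717 against PBS, from 0.65 to 2.71 for H-151 against PBS and from -1.74 to -0.27 for SR-717 against H-151. In SR-717 against PBS, single genes ranged from -0.74 to 1.99 (Cd79a), -0.22 to 1.38 (Cd79b), -0.78 to 2.28 (Pax5), -0.32 to 0.0302 (Ebf1), -0.32 to 1.71 (Vpreb1), -0.58 to 2.25 (Vpreb3), -0.18 to 2.40 (Igll1) and -0.97 to 2.53 (Rag1). In SR-717 against H-151 they ranged from -1.01 to 0.16 (Cd79b), -0.0461 to 0.22 (Ebf1) and -1.14 to 0.17 (Igll1). No value in H-151 against PBS changed sign. With the replicate block the medians were 0.62, 1.57 and -0.96 in the 3 comparisons, and the block changed no call. It moved the number of all genes at an unadjusted p under 0.05 from 97 to 534 in SR-717 against PBS and from 91 to 431 in H-151 against PBS. For SR-717 against H-151 it gave 173 against 146. DESeq2's Wald test gave 178, 125 and 281 such genes, and 1 gene at an adjusted p under 0.05 in SR-717 against H-151, which was none of the 9. Without SR-717 replicate 1 and PBS replicate 1 together, a choice made after seeing the data, the median in SR-717 against PBS was 0.41. The unadjusted p of Ms4a1 in SR-717 against H-151 ranged from 0.00731 to 0.130 over the alternatives. Pax5, Ms4a1, Vpreb3 and Rag1 rest on 5 counts or fewer in some libraries.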
